A study of Mus musculus with 6 samples.

Results

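The genes described here encode the subunits of the mouse proteasome, its activators and its assembly factors. They were chosen by name: a row of the expression table was taken when its symbol began with Psma to Psmg and a digit, or was Pomp, and when its mean over the 6 samples was at least 1 TPM. TPM, the deposited unit, divides the reads of a gene by its length and scales every sample to the same total. The rule found 47 genes of 26898 rows, and all 47 were among the 14799 genes that were expressed highly enough to be tested. Of these 47, 46 encode proteasome proteins. Psmc3ip matched by name only, since it encodes a meiotic recombination factor that was named for binding the ATPase subunit Psmc3.

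RNA was sequenced from primary mouse embryonic fibroblasts (MEFs), connective tissue cells taken from E12.5 embryos, at passage 3. The 3 WT samples were Kansl1 fl/fl and the 3 KO samples were Kansl1 fl/fl with CAG-cre, all on the C57BL/6 background. Both groups grew in 10% fetal bovine serum per the labels, although the methods of the study give a higher content for MEFs, and received tamoxifen, which activates the Cre in the KO cells, at 1 μM over 48 h. The comparison asks which transcripts depend on Kansl1, a scaffold of the NSL histone acetyltransferase complex. The Cre was driven by the broadly active CAG promoter and was present in the KO group only, so an effect of Cre itself cannot be told apart from the loss of Kansl1. The study describes the samples as separate animals.

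The proteasome is the main protease for ubiquitin-tagged proteins in the cytoplasm and nucleus. Its 20S core is a barrel of outer alpha and inner beta rings, and the beta subunits Psmb5, Psmb6 and Psmb7 cut the substrate. The 19S regulatory particle binds ubiquitin, removes it and unfolds the substrate with a ring of ATPases. Immune cells and interferon-treated cells replace the cutting subunits with Psmb8, Psmb9 and Psmb10 and add the activator cap formed by Psme1 and Psme2, while dedicated chaperones assemble the core and the base of the 19S particle.

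Between 17655495 and 27718259 reads per sample were recovered from the TPM values. Each of the 47 genes had at least 26 reads in every sample, and 42 of them had at least 100. Kansl1 mRNA was 26.6 ± 2.06 TPM in WT samples, against 14.6 ± 1.04 TPM in KO (mean ± SD, n = 3 in each group), or 55.1% of WT, so the transcript was reduced but still present. All 10 fibroblast markers were expressed, and limma and voom called none of them changed, where limma called 10.7% of all tested genes. At an unadjusted p under 0.05, 1 marker was higher, against 12.2% of all tested genes. The fibroblast markers summed to 7198 to 11232 TPM in WT samples, against 8223 to 10833 TPM in KO. One abundant small RNA, Gm23935, took between 15.5% and 25.6% of the TPM of a sample and was highest in KO 3. KO 3 was also the lowest KO sample for 44 of the 46 proteasome genes, and WT 8 was the lowest WT sample for 45 of them.

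The proteasome genes as a whole were close to their WT levels in KO. A gene was called changed at a limma Benjamini-Hochberg adjusted p under 0.005 and a log2 fold change (KO over WT, on the log2(TPM + 1) scale) beyond 0.5 in either direction. By this rule 4 of the 47 genes fell, namely Psme1, Psmd10, Psmd13 and Psmc3ip, and 0 rose. Among all tested genes 9.03% fell and 1.64% rose, so the share of 8.51% that fell here was near the background. With no filter on low values, so that all 26898 genes were tested, none of the 4 calls held: the limma adjusted p was 0.00659 for Psme1, 0.00833 for Psmd10, 0.0113 for Psmd13 and 0.00624 for Psmc3ip, at the same fold changes. At an unadjusted p under 0.05, 16 of the 47 were lower and 1, Psma7, was higher, compared with 27.2% and 12.2% of all tested genes. All KO samples were below all WT samples for 18 genes, or 38.3%, and above them for 3 genes, against 29.9% and 13.3% of tested genes. With median-of-ratios scaling, and with voom on recovered reads, 6 fell and 0 rose, against 9.73% and 3.2% of tested genes for the former and 12.2% and 4.34% for the latter. The median log2 fold change of the 47 genes was -0.07, the same as that of all tested genes. In bulk RNA of this kind, fewer cells of a type and less RNA per cell cannot be told apart.

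**Figure D1:**
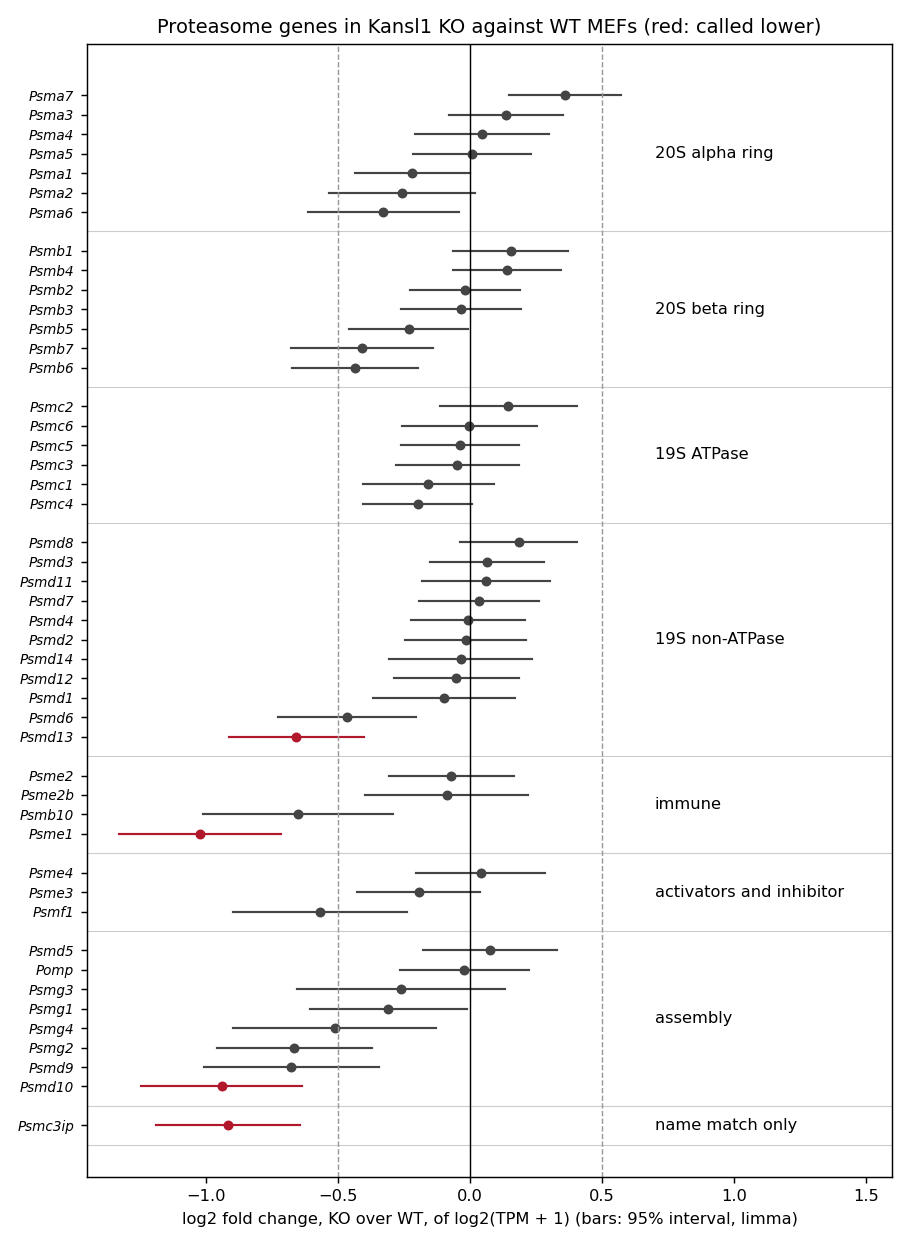
Log2 fold change of KO over WT (x axis) for each of the 47 genes, grouped by role, with 95% confidence intervals from limma; dashed lines mark a log2 fold change of 0.5 in either direction and red marks the genes called lower. The 20S and 19S subunits lie mostly near 0, while immune and assembly genes reach from -1.02 (Psme1) to 0.08 (Psmd5).

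The groups differed in where their medians lay. The 14 subunits of the 20S core had a median log2 fold change of -0.03 and the 17 subunits of the 19S particle had one of -0.04. The 8 assembly genes had a median of -0.41 and the 4 expressed immune genes one of -0.37. When TPM was rescaled by the median of ratios between samples, all medians moved up together: that of all tested genes from -0.07 to 0.02, those of the core and the 19S particle to 0.08 and 0.07, and those of the assembly and immune genes to -0.31 and -0.28. These are descriptions of the lists, and no test compared one group of genes with another.

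The summed TPM of a class is dominated by its abundant members. The 20S core summed to 1750 ± 134 TPM in WT samples, against 1678 ± 96.5 TPM in KO, or 95.9% of WT. The 19S particle summed to 2485 ± 240 and 2407 ± 129 TPM, or 96.9% of WT. The assembly genes summed to 217.7, 211.9 and 183.5 TPM in WT and to 142.3, 174.7 and 159.4 TPM in KO. Only in the assembly class, of these 3, did every KO sample lie below every WT sample, at 77.7% of WT.

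**Figure D2:**
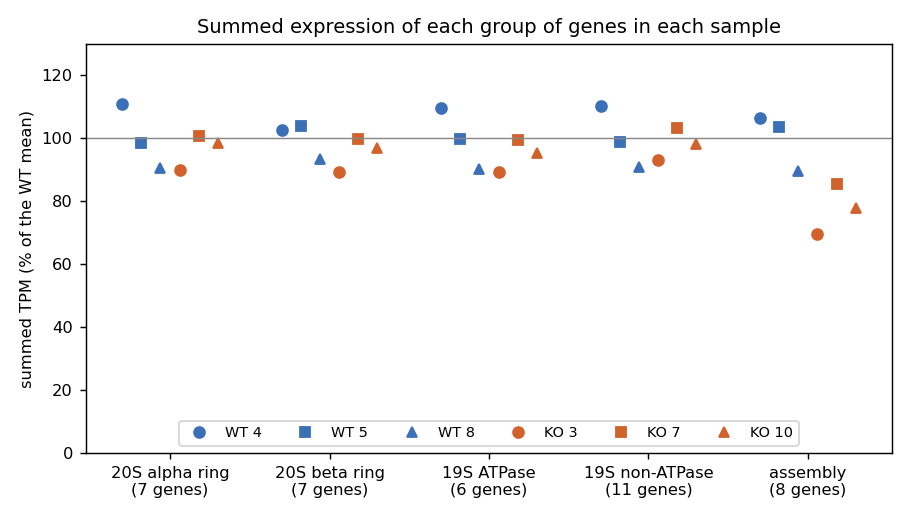
Summed TPM of each class in each sample as a percentage of the WT mean (y axis from 0), with 1 point per sample. The assembly genes lie at 77.7% of WT on average and the 20S and 19S classes between 94.7% and 98.2%.

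Among the immune genes, the activator subunit Psme1 fell. Psme1 (chromosome 14, 55578123 to 55581529, plus strand, mm10) encodes PA28 alpha, which forms the activator cap together with PA28 beta, the product of Psme2. Psme1 was 34.2, 31.7 and 29.1 TPM in the samples WT 4, 5 and 8. It was 12.4, 15.8 and 17.4 TPM in the samples KO 3, 7 and 10. The groups did not overlap, and each KO sample lay well below the lowest WT sample. The KO mean was 48.0% of WT, with a log2 fold change of -1.02 (SE 0.14, limma adjusted p = 0.000852). Its partner Psme2 was 34.2, 35.6 and 33.4 TPM in WT samples, against 29.5, 35.7 and 33.3 TPM in KO, so that the groups overlapped. The log2 fold change of Psme2 was -0.07 with a 95% interval from -0.31 to 0.17 (limma adjusted p = 0.657). Under median-of-ratios scaling it was 0.03.

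In WT cells the transcripts of this pair were near equal per length: Psme1 was 100.1%, 89.1% and 87.0% of Psme2. In KO cells Psme1 was 42.0%, 44.2% and 52.4% of Psme2. A ratio within a sample does not depend on how samples are scaled, and it shows unequal change of the 2 transcripts. Psme2b, a near copy that is 99.4% identical to Psme2 over 794 bases, was listed at 8.44 TPM on average, and the split of reads between Psme2 and Psme2b is uncertain. Psme3, the nuclear activator subunit, had overlapping groups, and Psme1 was 20.7% ± 0.770 of Psme3 in WT and 11.3% ± 1.36 in KO.

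The immune cutting subunits were low or barely detected. Psmb10, which replaces Psmb7, was 13.6, 12.7 and 13.0 TPM in WT samples, against 6.05, 8.35 and 9.99 TPM in KO. The groups did not overlap, but the log2 fold change of -0.65 (SE 0.16) missed the threshold (limma adjusted p = 0.0149). It passed when only genes of at least 10 TPM were tested (limma adjusted p = 0.0014). Psmb10 entered that test only through its WT level, since its means were 13.1 TPM in WT and 8.13 TPM in KO. Psmb10 was 22.9% ± 2.52 of Psmb7 in WT and 18.7% ± 3.09 in KO, with overlapping values. Psmb8, which replaces Psmb5, had 5, 6 and 9 reads in WT and 2, 0 and 1 reads in KO. Psmb9, which replaces Psmb6, had 4, 3 and 6 reads in WT and 3, 3 and 1 in KO. Both were under the 1 TPM rule and were not tested. The lowest member inside the rule was the chaperone gene Psmg3 with a mean of 1.88 TPM, and the highest gene outside it was Psmb8 with 0.130 TPM. The thymus subunit gene Psmb11 and the testis subunit gene Psma8 had at most 3 reads in any sample.

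The immune genes were read beside genes of MHC class I antigen presentation, which uses peptides cut by the proteasome. Of 15 tested genes in that list, 1 fell, 1 rose and 9 were lower at an unadjusted p under 0.05, where 9.03%, 1.64% and 27.2% of all tested genes did so. The list had a median log2 fold change of -0.36 against -0.07 for all tested genes. The class I heavy chain gene H2-D1 was 61.7, 70.3 and 65.6 TPM in WT samples, against 25.1, 28.5 and 30.6 TPM in KO (log2 fold change -1.20, limma adjusted p = 0.000212). H2-D1 shares sequence with other class I genes, so its counts may hold reads of its relatives. The peptide transporter gene Tap1 was 3.06, 3.58 and 3.20 TPM in WT samples, against 5.35, 6.31 and 6.28 TPM in KO, and it rose (log2 fold change 0.70, limma adjusted p = 0.00455). Tap2, which encodes its partner chain, was lower in every KO sample but did not pass (log2 fold change -0.90, limma adjusted p = 0.0168). Tap2 was tested only because of its WT level, since its means were 1.91 TPM in WT and 0.571 TPM in KO.

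Macrophages express immune proteasome genes, so macrophage markers were read beside them. Of 12 markers 8 were tested, and 1, Lyz2, rose, against 1.64% of all tested genes. Leaving Adgre1 aside, each tested marker was higher in every KO sample than in every WT sample, against 13.3% of all tested genes. Adgre1 had the same order, but its place in the test rested on KO. The other 4, Cx3cr1, Ptprc, Itgam and Aif1, were too low to be tested and had overlapping groups, and Adgre1 entered the test only through its level in KO (0.753 TPM in WT and 2.05 TPM in KO). The summed level of the 12 markers was 40.3 to 49.3 TPM in WT samples, against 88.1 to 177 TPM in KO. The pan-leukocyte marker Ptprc was at most 0.257 TPM in any sample. With voom, Lyz2 was also the only marker of this list called higher, against 4.34% of all tested genes. Endothelial markers, of which voom called Kdr higher, summed to 2.28 to 5.57 TPM in WT samples, against 3.13 to 4.70 TPM in KO, and epithelial markers to 40.4 to 45.8 and 49.4 to 66.5 TPM. The part of these cell types in the immune gene values was not tested.

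Assembly factors were expressed at lower levels than the subunits they assemble. Their means ran from 1.88 TPM for Psmg3 to 36.6 TPM for Pomp, whereas the lowest subunit of the 20S core or 19S particle was Psmb7 at 50.3 TPM. Of the 8 assembly genes 1 fell, against 9.03% of all tested genes, and 5 were lower at an unadjusted p under 0.05, against 27.2%. Under median-of-ratios scaling and with voom 3 fell, namely Psmd10, Psmd9 and Psmg2, against 9.73% and 12.2% of all tested genes. Psmd10 (chromosome X, 140948429 to 140956728, minus strand, mm10) encodes gankyrin, a chaperone of the 19S ATPase ring. Psmd10 was 35.6, 35.9 and 31.9 TPM in WT samples, against 14.5, 20.9 and 17.5 TPM in KO. No KO sample came near the WT range. The KO mean was 51.2% of WT, with a log2 fold change of -0.94 (SE 0.14, limma adjusted p = 0.00126).

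The other chaperones of the ATPase ring showed different values. Psmd9, which encodes the p27 chaperone, was 11.3, 12.1 and 10.1 TPM in WT samples, against 5.29, 7.79 and 6.94 TPM in KO. The groups did not overlap, but the log2 fold change of -0.68 (SE 0.15) missed the threshold (limma adjusted p = 0.00863) and passed it with median-of-ratios scaling (adjusted p = 0.00276) and with voom (adjusted p = 0.000578). Psmd9 shares 1849 of its 7248 exonic bases with a long noncoding RNA on the opposite strand, and whether reads were counted by strand is not given in the sources used here. Psmd5, which encodes the S5b chaperone, was 37.6, 30.8 and 30.3 TPM in WT samples, against 33.7, 36.5 and 33.8 TPM in KO. These groups overlapped, and the log2 fold change of Psmd5 was 0.08 with a 95% interval from -0.18 to 0.33 (limma adjusted p = 0.647).

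The chaperones of the alpha ring act as the pairs Psmg1 with Psmg2 and Psmg3 with Psmg4. Psmg2 was 27.8, 30.6 and 24.8 TPM in WT samples, against 15.2, 19.95 and 16.4 TPM in KO, and its log2 fold change of -0.67 (SE 0.13) missed the threshold (limma adjusted p = 0.00508) and passed it with median-of-ratios scaling (adjusted p = 0.00166) and with voom (adjusted p = 0.00126). Psmg1 was 35.2, 39.7 and 32.6 TPM in WT samples, against 24.0, 30.5 and 32.0 TPM in KO (log2 fold change -0.31, limma adjusted p = 0.113). Psmg4 had overlapping groups, at 18.0 to 26.2 TPM in WT samples, against 13.6 to 19.3 TPM in KO, with a log2 fold change of -0.51 (limma adjusted p = 0.0509). Pomp, which closes the newly formed core, was 33.8 to 41.6 TPM in WT samples, against 34.7 to 37.8 TPM in KO, and its log2 fold change was -0.02. Psmd9, Psmg1, Psmg2, Psmg4 and Pomp were described after their values had been seen.

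**Figure D3:**
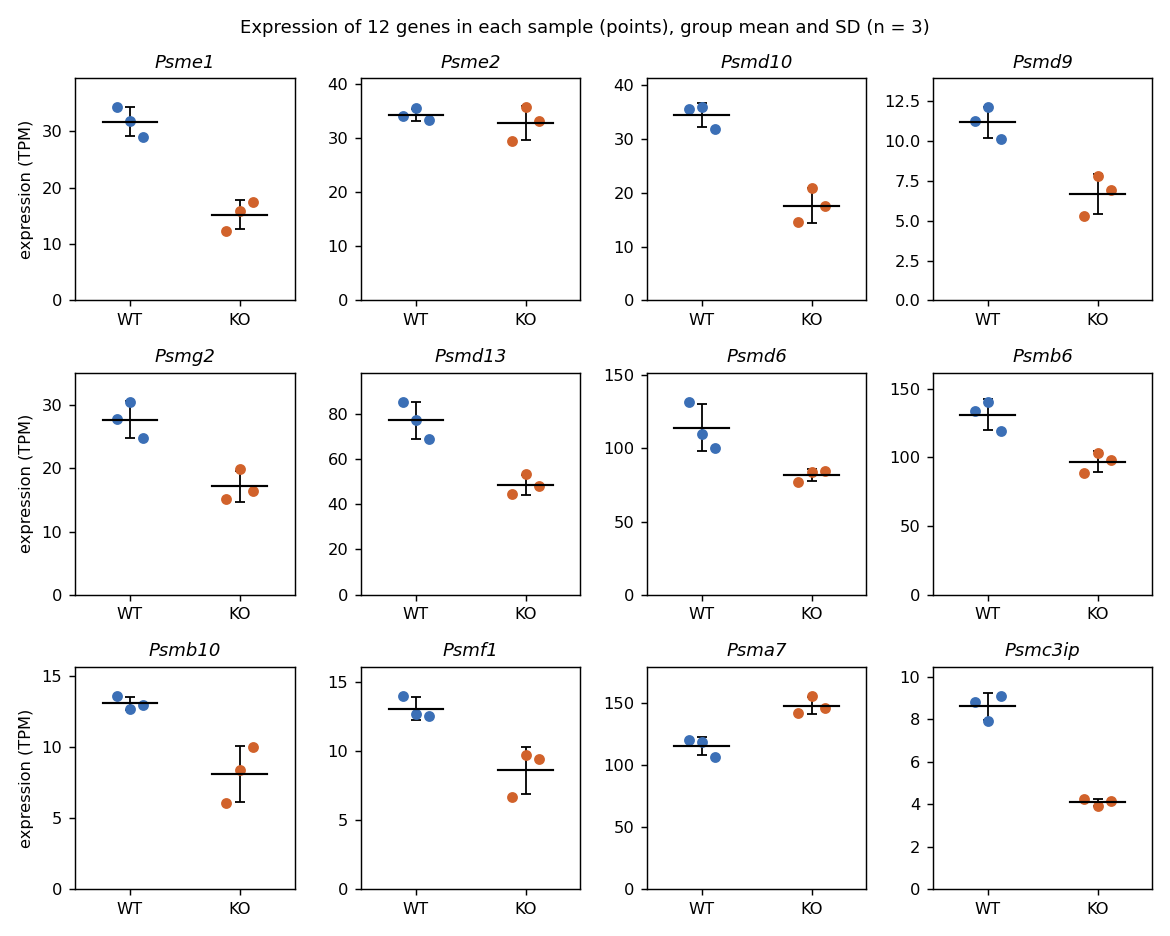
TPM in each sample (points) with the mean and SD of WT and KO for 12 genes, each on its own y axis. Psme1 and Psmd10 in KO lie below every WT sample, Psme2 overlaps, and Psma7 in KO (142 to 155 TPM) lies above WT (107 to 119.9 TPM).

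In the 19S particle, 1 of 17 subunits fell, against 9.03% of all tested genes. Psmd13 (chromosome 7, 140881968 to 140898643, plus strand, mm10) encodes the lid subunit Rpn9, and was 85.4, 77.4 and 69.0 TPM in WT samples, against 44.5, 53.2 and 48.1 TPM in KO. The groups did not overlap. The KO mean was 62.9% of WT, with a log2 fold change of -0.66 (SE 0.11, limma adjusted p = 0.00284). The log2 fold change stayed between -0.73 and -0.58 when any 1 sample was left out. The call itself was lost when WT 4, WT 5, KO 3, KO 7 or KO 10 was left out, with limma adjusted p values from 0.00378 to 0.0123 over the 6 fits that leave out 1 sample. Psmd13 shares 342 exonic bases with Sirt3 on the opposite strand, and Sirt3 was listed at 1.502 TPM on average.

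The other lid and base subunits stayed closer to WT. Psmd6, which encodes the lid subunit Rpn7, was 101 to 132 TPM in WT samples, against 77.2 to 84.8 TPM in KO (log2 fold change -0.47, SE 0.12, limma adjusted p = 0.0157). It was described after its values had been seen. Psmd8, which encodes the lid subunit Rpn12, was 333, 302 and 281 TPM in WT samples, against 339, 364 and 335 TPM in KO, and the 95% interval of its log2 fold change, 0.18, ran from -0.04 to 0.41. The other 8 non-ATPase subunits, among them the deubiquitinase gene Psmd14 and the ubiquitin receptor gene Psmd4, had overlapping groups and log2 fold changes from -0.10 (Psmd1) to 0.06 (Psmd3).

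The 6 ATPase subunits, which form the unfolding ring, included no call by limma on TPM or by voom and no unadjusted p under 0.05. Among all tested genes limma called 9.03% lower and 1.64% higher, and voom 12.2% and 4.34%. At an unadjusted p under 0.05, 27.2% were lower and 12.2% higher. Psmc4 had the lowest log2 fold change, -0.20 (limma adjusted p = 0.142), with 155, 149.6 and 139 TPM in WT samples, against 125, 135 and 126 TPM in KO. Its groups did not overlap. Psmc2 had the highest, 0.15 (limma adjusted p = 0.383), with 78.9, 70.7 and 63.9 TPM in WT samples, against 70.9, 86.5 and 78.8 TPM in KO. Psmc6 was nearest to 0, with a 95% interval from -0.26 to 0.25.

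No 20S core subunit was called changed by limma on TPM or by voom, where limma called 9.03% of all tested genes lower and 1.64% higher. At an unadjusted p under 0.05, 5 of the 14 were lower and 1 was higher, against 27.2% and 12.2% of all tested genes. The cutting subunit gene Psmb6 was 134, 141 and 119 TPM in WT samples, against 88.4, 103 and 98.4 TPM in KO, or 73.8% of WT, with a log2 fold change of -0.43 (SE 0.11, limma adjusted p = 0.0140). Psmb7 was 62.3, 60.1 and 50.3 TPM in WT samples, against 38.2, 45.6 and 45.4 TPM in KO (log2 fold change -0.41, SE 0.12, limma adjusted p = 0.0307). It shares 405 of its 3421 exonic bases with Nek6 on the opposite strand, which was listed at 13.5 TPM on average. Psmb5 was 85.4, 95.5 and 84.7 TPM in WT samples, against 72.2, 81.6 and 71.9 TPM in KO (log2 fold change -0.23, SE 0.10, limma adjusted p = 0.117). The pseudogene Gm3375, 98.87% identical to Psmb5 over 796 bases, was listed at 5.67 TPM on average. How reads were split between Psmb5 and Gm3375 is uncertain. For all 3 cutting subunits each KO sample lay below each WT sample, a pattern that 29.9% of all tested genes had, and none passed the threshold. With median-of-ratios scaling the adjusted p was 0.00173 for Psmb6 and 0.00459 for Psmb7, at log2 fold changes of -0.33 and -0.31 that are inside the fold threshold. The non-cutting beta subunit Psmb1 was 76.3, 68.8 and 67.2 TPM in WT samples, against 74.4, 82.5 and 79.6 TPM in KO (log2 fold change 0.15).

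In the alpha ring, which gates the entry to the core, the members lay on both sides of 0. Psma7 was 119.9, 118 and 107 TPM in WT samples, against 142, 155 and 145 TPM in KO, and it had the highest log2 fold change of all 47 genes, 0.36 (SE 0.09, limma adjusted p = 0.0195). Psma6 was 275, 233 and 208 TPM in WT samples, against 166, 199 and 203 TPM in KO, and it had the lowest of the ring, -0.33 (SE 0.13, limma adjusted p = 0.0848). Neither set of groups overlapped. With median-of-ratios scaling the adjusted p of Psma7 was 0.000834 at a log2 fold change of 0.46, which is under the fold threshold. Psma1 and Psma2 were lower in every KO sample without passing, and Psma3, Psma4 and Psma5 had overlapping groups. Of all tested genes, 29.9% had every KO sample below every WT sample and 13.3% had them above.

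The remaining activators and the inhibitor gave no call by limma with genes of at least 1 TPM or by voom. Over all tested genes, limma called 9.03% lower and 1.64% higher. Psmf1 encodes PI31, a regulator that binds the core, and was 14.005, 12.7 and 12.5 TPM in WT samples, against 6.66, 9.73 and 9.41 TPM in KO (log2 fold change -0.57, SE 0.15, limma adjusted p = 0.0186). It was called lower when only genes of at least 10 TPM were tested (limma adjusted p = 0.00397). Psmf1 entered that test only through its WT level, since its means were 13.1 TPM in WT and 8.60 TPM in KO. Psme4, which encodes the nuclear activator PA200, was 60.2, 55.0 and 48.5 TPM in WT samples, against 52.6, 59.2 and 56.3 TPM in KO (log2 fold change 0.04). Psmc3ip, the name match, was 8.82, 7.90 and 9.11 TPM in WT samples, against 4.24, 3.92 and 4.13 TPM in KO, and it fell (log2 fold change -0.91, SE 0.12, limma adjusted p = 0.000823). Psmc3ip shares 385 exonic bases with Mlx on the opposite strand, and Mlx was listed at 25.3 TPM.

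All genes called lower had a WT mean under 100 TPM. Above that level Psmb6, Psmd6, Psma6 and Psmc4 were lower in every KO sample without passing. Psma7, Psmb4 and Psmd8 were higher there in every KO sample, also without passing. Among tested genes of every level, 29.9% had all KO samples below all WT samples and 13.3% had them above. Among the 22 genes with a WT mean of at least 100 TPM, 0 fell, against 1.09% of the 1197 tested genes of that level. Among the 19 genes between 20 and 100 TPM, 3 fell, against 9.36% of tested genes. Among the 6 genes under 20 TPM, 1 fell, against 10.7%, and it was the name match Psmc3ip. The median log2 fold change of the 6, Psmc3ip included, was -0.61 against -0.15 for tested genes of that level. The immune and assembly genes are mostly in the lower ranges, so class and level cannot be told apart here.

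**Figure D4:**
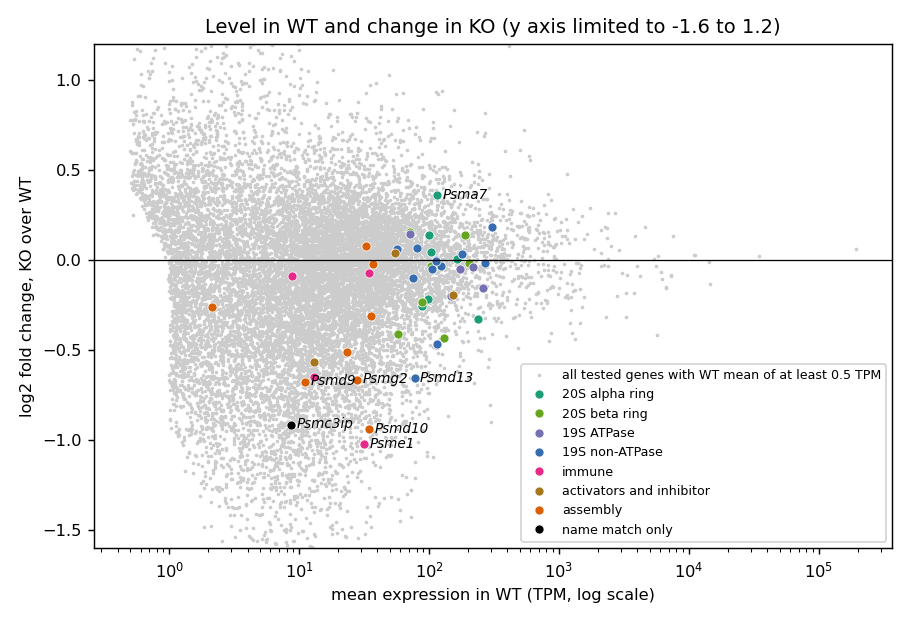
Mean TPM in WT (x axis, log scale) against log2 fold change of KO over WT (y axis, limited to -1.6 to 1.2) for the 47 genes, coloured by role, over all tested genes with a WT mean of at least 0.5 TPM in grey. All genes called lower lie under 100 TPM in WT, and Psma7 is the highest point among the 47.

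Genes that share a start region with a proteasome gene were looked at next, since 11 of the 47 have an oppositely directed neighbour with a start within 1000 bases. Psmd10 starts 179 bases from Atg4a, which encodes a protease of autophagy. Atg4a was 15.2, 14.7 and 11.6 TPM in WT samples, against 4.86, 5.74 and 4.97 TPM in KO, and it fell (log2 fold change -1.25, limma adjusted p = 0.000368). Psmd13, the other called gene with such a neighbour, overlaps the start of Sirt3, whose log2 fold change of -0.46 did not pass (limma adjusted p = 0.0856). Psmb1 starts 137 bases from Tbp, whose log2 fold change was -0.56 (limma adjusted p = 0.0181) while that of Psmb1 was 0.15. The signs also differed for Psmc2 (0.15) with Dnajc2 (-0.34) and for Psme2 (-0.07) with Rnf31 (0.04). They matched for Psmg2 (-0.67) with Cep76 (-0.54) and for Psma2 (-0.26) with Mrpl32 (-0.40). Psma7 (0.36) with Ss18l1 (0.36) and Psmc5 (-0.04) with Ftsj3 (-0.25) matched as well. Whether such pairs change together was not tested. Of the 7 tested neighbours of proteasome genes that were not called, limma called 0, and the adjusted p of Tbp was the lowest among them. Among all tested genes 9.03% were called lower and 1.64% higher.

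The bases before the start were examined for 40 of the 47 genes, in the RefSeq windows of build GRCm38.p6, taking 250 bases before the start and both strands. The sequence TGACNNNGC, an antioxidant response element core that Nfe2l1 and Nfe2l2 can bind, was in 11.63% of the 43 windows, 11.67% of the windows of tested genes and 10.16% of all windows. The ETS core CCGGAA was in 46.51%, against 22.18% and 12.03%, and was found in 3 of the 4 called genes, Psmc3ip, Psmd10 and Psmd13. The CCAAT sequence was in 30.23%, 35.54% and 33.85%, and the interferon response core (GAAA, any 2 bases, then GAAA) in 6.98%, 2.42% and 2.98%. A match is a description of these letters and not a site or a cause.

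Stretches before the starts of the called genes Psme1 and Psmd10 and of the cutting subunits Psmb5 and Psmb6 let these matches be seen. Any match to these motifs is in capitals, and exonic bases are left out. The called genes Psmd13 and Psmc3ip and the cutting subunit Psmb7 are not shown. The windows end at the RefSeq start, which for Psme1 lies inside the gene as GENCODE M21 bounds it above, since that annotation holds transcripts that start further upstream. The Psme1 stretch runs from -245 to -135 and the Psmd10 stretch from -195 to -18, counted from the RefSeq start. The stretches lie at chr14:55578249-55578359 (plus) for Psme1, chrX:140956729-140956906 (minus) for Psmd10, chr14:54618023-54618055 (minus) for Psmb5 and chr11:70525297-70525356 (plus) for Psmb6.
Psme1: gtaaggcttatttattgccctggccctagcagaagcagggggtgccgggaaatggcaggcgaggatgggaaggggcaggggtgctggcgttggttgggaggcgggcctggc
Psmd10: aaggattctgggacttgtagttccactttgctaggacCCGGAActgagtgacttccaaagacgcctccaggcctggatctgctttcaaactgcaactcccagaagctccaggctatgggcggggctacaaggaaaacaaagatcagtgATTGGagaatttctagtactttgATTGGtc
Psmb5: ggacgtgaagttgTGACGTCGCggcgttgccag
Psmb6: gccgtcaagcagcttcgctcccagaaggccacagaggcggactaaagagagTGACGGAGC
Psmd10 shows 1 ETS core and 2 CCAAT matches on the opposite strand, while the stretch of Psme1 shows none of the motifs. Psmb5 and Psmb6 each show 1 antioxidant response element core, and neither gene was called.

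The factors that control proteasome genes were read from a list of 11, of which 9 were tested. None was called changed, and 6 were higher at an unadjusted p under 0.05, against 12.2% of all tested genes. The median log2 fold change was 0.30, against -0.07 for all tested genes. Nfe2l1, a main activator of proteasome genes, was 152, 171 and 145 TPM in WT samples, against 177, 216 and 194 TPM in KO (log2 fold change 0.33, limma adjusted p = 0.0518). The small Maf partner Maff had the largest value of the list, 0.57 (limma adjusted p = 0.00565). Of 10 tested genes of proteasome-associated proteins none was called, with Zfand5 the highest at 0.40 (limma adjusted p = 0.0217), and of 17 tested ubiquitin supply and delivery rows none was called. With voom on recovered reads Maff, Bach1 and Zfand5 were called higher, against 4.34% of all tested genes. At an unadjusted p under 0.05, 1 proteasome-associated gene was higher and 1 lower, and 3 ubiquitin supply and delivery rows were higher and 2 lower. Among all tested genes 12.2% were higher and 27.2% lower at that p, and limma called 1.64% higher and 9.03% lower.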

How the data were processed

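The authors deposited expression as TPM in 1 table of 26898 genes for the 6 samples, aligned to mm10. The study names STAR and DESeq2, while the submitters' processing notes list Bowtie 0.12.2; the counting program was not given in the sources used here. Columns holding the authors' own fold changes and adjusted p-values were not used, and 0 sample columns were left unused. Genes with a group mean of at least 1 TPM were tested on log2(TPM + 1) in limma 3.58.1 (R version 4.3.3), including a variance trend but no covariate. Calls used the thresholds of the study, an adjusted p under 0.005 and a log2 fold change beyond 0.5. Reads were recovered from TPM and GENCODE M21 exon lengths, and 100.0% of values checked were whole at a tolerance of 0.05. In simulated data of 14466 genes, limma recovered 39.3% of log2 0.8 changes and 100% of log2 1.5 changes at 10 TPM or more. On simulated reads voom recovered 95.1% and 100%. The simulation gave every gene the same dispersion and every sample the same expected composition, with 200 genes changed equally up and down. The real samples differ in composition and had more lower than higher calls, so these rates may not carry over. Values in every sample are given for each called gene, the cutting subunits and their immune counterparts, and the extremes of each class. The genes and lists were chosen with earlier results of these data known. Alternatives changed the pseudocount, filter, scaling, variance model, thresholds, test and samples. P-values measure the spread between these samples, and 3 against 3 cannot give an exact permutation p under 0.1.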

Additional observations from a re-analysis of the deposited data

How the results depend on the processing

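No paired analysis was possible because the sample numbers of WT (4, 5 and 8) and KO (3, 7 and 10) have none in common. The 4 genes called lower and changed became 0 with all 26898 genes tested (limma adjusted p from 0.00624 to 0.0113). In that fit 286 of the 26898 were called lower. At an adjusted p under 0.05 the count was 8 of 47, against 2453 of 14799 tested genes. With genes of at least 10 TPM it was 7 of 44, of which 3 were among the 4, against 1160 of 8230 tested genes. Psmb10, Psmd9 and Psmf1 entered the test at 10 TPM only through their WT level. Psmc3ip is under 10 TPM and was not tested there. Psmd9 and Psmg2 were also called under median-of-ratios scaling and with voom on recovered reads, which gave 6 each, and Psmd13 was lost without a variance trend (adjusted p = 0.00827). Leaving out 1 sample gave 3 to 4 changed and lower genes and 0 higher genes, and Psme1, Psmd10 and Psmc3ip were called in all 6 of these fits. Over all tested genes these fits called 617 (without WT 5) to 938 (without KO 7) lower, against 1337 in the main fit. They called 84 (without KO 7) to 252 (without WT 4) higher, against 242. Psme2 changed sign at log2 fold changes of 0.032 (median-of-ratios) and 0.033 (voom), and over the fits without 1 sample it ranged from -0.13 to 0.0035. Psme4 ranged from -0.039 to 0.11. Of the 47 genes, 34 had a negative log2 fold change as deposited and 21 after median-of-ratios scaling. Among all tested genes, voom called 12.2% lower and 4.34% higher. Genes with few reads, such as Psmb8, Psmb9 and Psmg3, limit what this depth can show.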
